A study of Mus musculus with 6 samples.

Results

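Forkhead genes encode transcription factors that share a winged helix DNA-binding domain, and they are named Fox with a letter for the subfamily. In fetal gonads of E13.5 mouse embryos, 43 of them were measured among 19937 genes, all by array probe sets annotated to a single gene whose symbol follows the forkhead pattern; a gene with several probe sets was represented by the one with the highest mean over all arrays. The Sox9 mutant group, of genotype Sox9flox/flox; Sf1:creTr/+, carries floxed Sox9 alleles and a Cre transgene driven by regulatory sequence of Nr5a1 (Sf1), which is active in somatic cells of the gonad, and was measured on 3 arrays, each of a pool of 12 gonads without mesonephros. The wild-type group, with neither the floxed alleles nor the Cre, had 3 arrays of pools of 6 gonads. Both groups came from a mixed cross of C57BL6/J and 129 strains, and 300 ng of total RNA was labelled per array. No group carried the Cre or the floxed alleles alone, and pool size went with genotype, so these cannot be told apart from the loss of Sox9. The labels do not say that pools came from separate litters, so the p-values cover only the variation among these pools, and that may be technical.

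FOXL2 is the forkhead factor of the supporting cells of the ovary. There it works beside the RSPO1 and WNT4 signals, and in adult mouse granulosa cells its loss is followed by expression of Sox9 and of other Sertoli cell genes. Other forkhead factors act elsewhere: FOXC1 and FOXC2 in mesenchyme and vessels, FOXO factors downstream of insulin and PI3K signalling, FOXM1 in mitosis, FOXJ1 in motile cilia and FOXA factors in endoderm and liver.

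Values are deposited RMA values on the log2 scale, and differences are Sox9 mutant minus wild type, tested with limma at an adjusted p of 0.05 over all probe sets. Sox9 itself measured 7.52, 7.78 and 7.60 log2 on mutant arrays 3, 4 and 6, against 8.82, 8.81 and 9.20 on wild-type arrays 1, 2 and 5; the labels do not say which part of Sox9 is deleted, so this value may not check the deletion. Sox9 fell by 1.31 ± 0.14 log2 (SE; limma adjusted p = 0.00124). Nr5a1, whose regulatory sequence drives the Cre, averaged 10.42 ± 0.22 log2 in the mutant and 10.44 ± 0.14 in wild type (SD, n = 3 each; limma adjusted p = 0.971). Correlations between arrays ran from 0.984 to 0.992 within groups and from 0.969 to 0.985 between them. These ranges overlap: mutant 4 with wild type 2 (0.985) was above mutant 3 with mutant 6 (0.984). The labels give no sex and it was not read from the values, so a difference in the sex make-up of the pools was not tested. Gonad identity was read from marker lists. The mean of 16 Sertoli genes lay at 7.01, 8.19 and 7.04 log2 on mutants 3, 4 and 6 and between 9.64 and 9.73 in wild type, and 14 of the 16 passed as lower, with Amh, Cst9, Hsd17b3 and Cbln1 as the called genes with the lowest differences (-4.33, -4.14, -3.51 and -3.25 log2). The mutant means of Cst9 and Hsd17b3 were below the background mark given next, which limits the size of those falls, and Amh, Hsd17b3 and Cbln1 lost their calls in a limma fit with trend and robust variance (adjusted p up to 0.0802). Wild type 5 stood apart in 12 liver genes, with a mean of 8.64 log2 against 6.42 and 6.61 on the other wild-type arrays and 6.49 to 6.58 on mutant arrays. A background mark of 6.67 log2 was taken from 1204 probe sets of olfactory and vomeronasal receptors, 95% of which had means under it, and values below it say little about expression.

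Foxl2 was the only forkhead gene that rose in the mutant. It measured 8.37, 8.45 and 8.24 log2 on mutants 3, 4 and 6, against 7.10, 7.05 and 7.16 on wild types 1, 2 and 5. All mutant arrays were above all wild-type arrays, with a gap of 1.08 log2 between the groups and ranges of 0.21 log2 within the mutant and 0.10 within wild type. The difference was 1.25 ± 0.11 log2 (SE), a 2.38-fold rise (limma adjusted p = 0.000561), with a 95% interval from 0.999 to 1.5 log2. The rise was 1.33 log2 between the arrays numbered 1 to 4 and 1.08 log2 between mutant 6 and wild type 5. Mutant 4, which kept the highest Sertoli mean of the mutants, also had the highest Foxl2 value. In RNA from whole gonads, more cells that express a gene and more RNA per cell cannot be told apart.

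Foxl2os, the long non-coding RNA gene that starts upstream of Foxl2 and is read the other way, rose as well. It had 8.79, 8.29 and 8.19 log2 on mutants 3, 4 and 6, against 7.60, 7.79 and 7.72 on wild types 1, 2 and 5, and the groups did not overlap. The difference was 0.72 ± 0.16 log2 (SE; limma adjusted p = 0.0346), a call that ended without any single array other than mutant 6 (adjusted p up to 0.144). Faim, which regulates apoptosis and is the nearest measured gene on the other side of Foxl2, differed by 0.49 log2 without passing (limma adjusted p = 0.0787), with no overlap of the groups. The start sites of Foxl2 and Foxl2os lie 297 bases apart, head to head. The 296 bases between them are shown because both transcripts that start at their ends were higher in the mutant; they are from RefSeq sequence of GRCm38.p6, chr9:98955311-98955606, plus strand, with CpG dinucleotides in capitals.

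Foxl2os start to Foxl2 start: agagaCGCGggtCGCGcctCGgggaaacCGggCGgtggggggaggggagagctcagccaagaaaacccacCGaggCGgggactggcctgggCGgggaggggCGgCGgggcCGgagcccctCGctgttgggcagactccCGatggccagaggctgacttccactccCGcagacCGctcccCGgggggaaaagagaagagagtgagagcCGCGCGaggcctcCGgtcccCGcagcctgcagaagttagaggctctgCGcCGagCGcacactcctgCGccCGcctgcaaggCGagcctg

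The stretch held 29 CpG dinucleotides and was 72.0% G and C, against a median of 52.7% in 32851 RefSeq promoter windows of 300 bases. It was searched on both strands for 5 short motifs, and none was found: the forkhead motif TGTTTAC, the SOX motifs ACAAAG and AACAAT, the NR5A1 motif AAGGTCA and the GATA motif AGATAA. In all promoter windows these occurred in 3.65%, 18.7%, 10.7%, 4.72% and 11.2%, in that order. The 28 forkhead genes with a promoter window had 33 windows. ACAAAG was in 8 of these windows, of 7 genes (Foxa1, Foxa2, Foxb2, Foxn3, Foxo3, Foxp1 and Foxp3). TGTTTAC was in 1, of Foxa1, and AACAAT in 1, of Foxp1. AAGGTCA was in 2, of Foxk2 and Foxp3, and AGATAA in 2, of Foxa2 and Foxp3. None of the 5 motifs was in the windows of Foxc1, Foxl2, Foxp4 or Foxr1. Foxc2, Foxs1 and Foxo4, which also passed in the limma fit, had no window and were not searched. These are matches of letters and say nothing about binding.

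**Figure D1:**
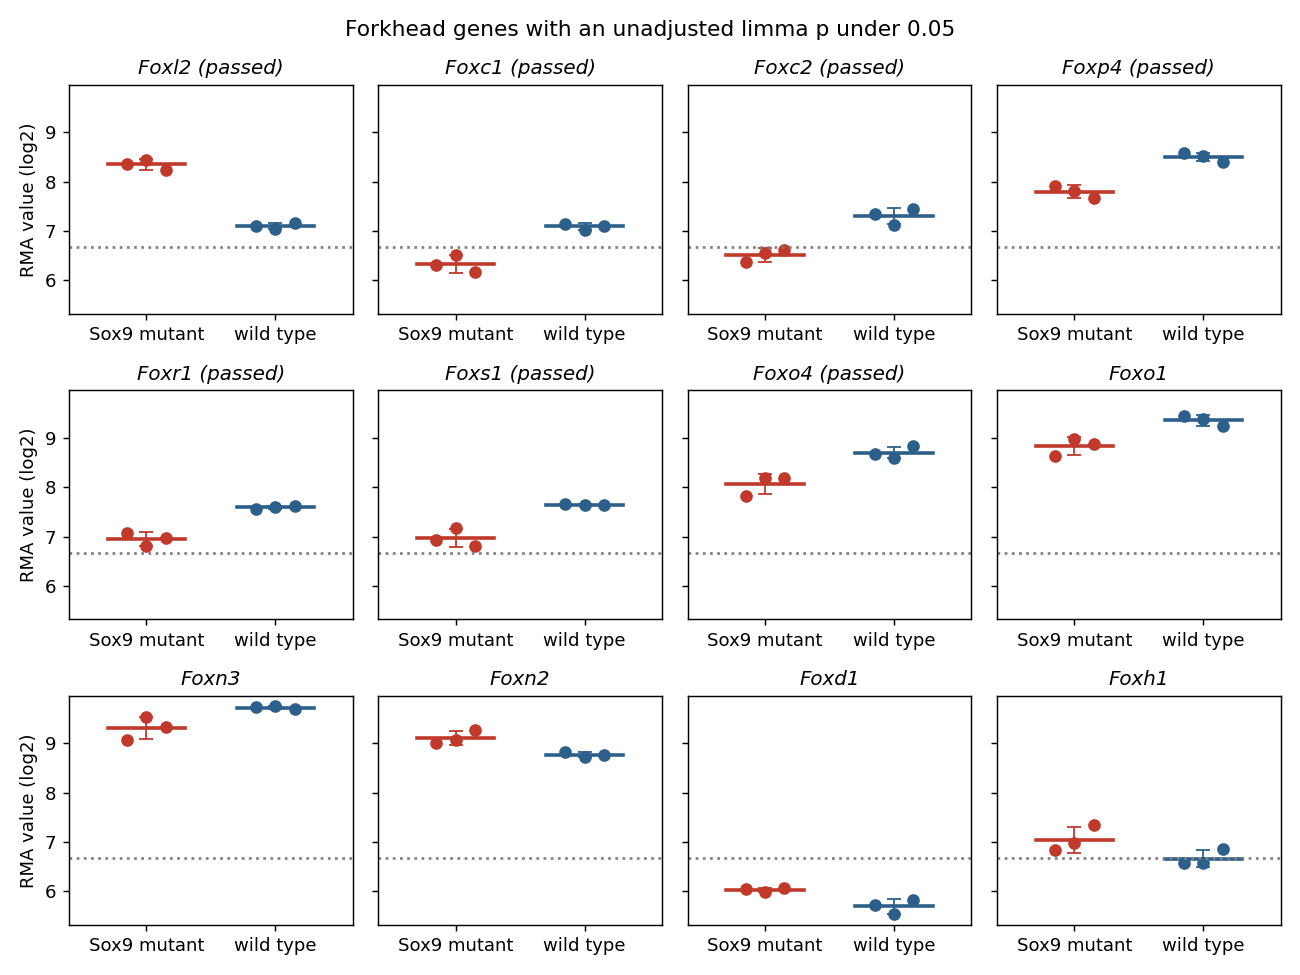
RMA values (log2) on each array for the 12 forkhead genes with an unadjusted limma p under 0.05, Sox9 mutant left and wild type right; points are arrays (mutants 3, 4 and 6, wild types 1, 2 and 5, in that order), lines are means with SD (n = 3), and the dotted line is the background mark of 6.67. Foxl2 is the one gene that passed with mutant points on top, and the mutant points of Foxc1 and Foxc2 lie below the mark.

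Another 6 forkhead genes fell: Foxc1, Foxc2, Foxs1, Foxp4, Foxr1 and Foxo4. Their differences ran from -0.79 to -0.63 log2, or 1.55-fold to 1.74-fold lower, and in each the mutant arrays were all below the wild-type arrays. Foxc1 and Foxc2 are closely related factors of mesoderm and mesenchyme, and mouse mutants show roles for them in the eye, kidney and vessels. Foxc1 measured 6.31, 6.52 and 6.17 log2 on mutants 3, 4 and 6, against 7.15, 7.02 and 7.11 on wild types 1, 2 and 5 (difference -0.76 ± 0.12 SE, limma adjusted p = 0.00836). Foxc2 measured 6.37, 6.56 and 6.62 log2 on the mutants, against 7.35, 7.13 and 7.45 in wild type (difference -0.79 ± 0.13 SE, limma adjusted p = 0.00841). In both genes every mutant value was under the background mark, so these falls may be understated. Both calls held in all 15 alternative fits at the same threshold, with limma adjusted p up to 0.0492 for Foxc1 and 0.0490 for Foxc2. The fit limited to probe sets above the mark kept both genes only through their wild-type values, so it adds no support.

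Foxs1, a forkhead factor known from pericytes and smooth muscle of vessels and from sensory neurons, had 6.93, 7.16 and 6.81 log2 on mutants 3, 4 and 6. In wild type its values were close together, at 7.67, 7.64 and 7.64 log2, and the difference was -0.68 ± 0.12 log2 (SE; limma adjusted p = 0.0134). Dusp15, a dual-specificity phosphatase gene next to Foxs1, fell by 1.47 log2 (limma adjusted p = 0.0051). Of the 14 nearest measured genes on either side of the 7 forkhead genes that passed, Dusp15 fell, Foxl2os rose and 12 did not pass. The call of Foxs1 ended without mutant 3, wild type 1 or wild type 2 (limma adjusted p up to 0.0650).

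Foxp4, a repressor that dimerises with other FOXP factors and acts in lung and gut epithelium, measured 7.92, 7.81 and 7.67 log2 on mutants 3, 4 and 6, against 8.58, 8.52 and 8.40 in wild types 1, 2 and 5. The difference of Foxp4 was -0.70 ± 0.12 log2 (SE; limma adjusted p = 0.00938), and the call ended without wild type 1 (adjusted p = 0.0540). Foxr1, a little-studied member, measured 7.08, 6.80 and 6.97 log2 on the mutants, against 7.55, 7.60 and 7.62 in wild type. Its difference of -0.64 ± 0.12 log2 (SE; limma adjusted p = 0.0133) lost its call without mutant 4, wild type 1 or wild type 2 (adjusted p up to 0.0543). Foxo4, which PI3K and AKT signalling keeps out of the nucleus, measured 7.83, 8.18 and 8.19 log2 on the mutants, against 8.68, 8.60 and 8.83 in wild type. Its difference of -0.63 ± 0.14 log2 (SE) passed with a limma adjusted p of 0.0283, a call that ended without any single array other than mutant 6 (adjusted p up to 0.103).

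Over the family 1 of 43 genes rose (2.33%), against a background of 2.64% of all genes, and 6 fell (14.0%), against 4.3% of all genes. The median difference was -0.03 log2 for the forkhead genes and 0.00 log2 for all genes. Members whose groups did not overlap numbered 17 (39.5%), 4 with the mutant above and 13 with it below, against 28.7% of all genes. An unadjusted limma p under 0.05 was found for 12 members (27.9%), against 21.7% of all genes, which is near the background. The count of 6 lower members was 4 without mutant 3 or mutant 4, 6 without mutant 6, 2 without wild type 1, 3 without wild type 2 and 5 without wild type 5. Calls were lost over all 19937 genes as well. There the count of 857 lower was 420 without mutant 3, 579 without mutant 4 and 746 without mutant 6. It was 330 without wild type 1, 459 without wild type 2 and 494 without wild type 5. Foxl2, Foxc1 and Foxc2 passed in each of these fits.

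**Figure D2:**
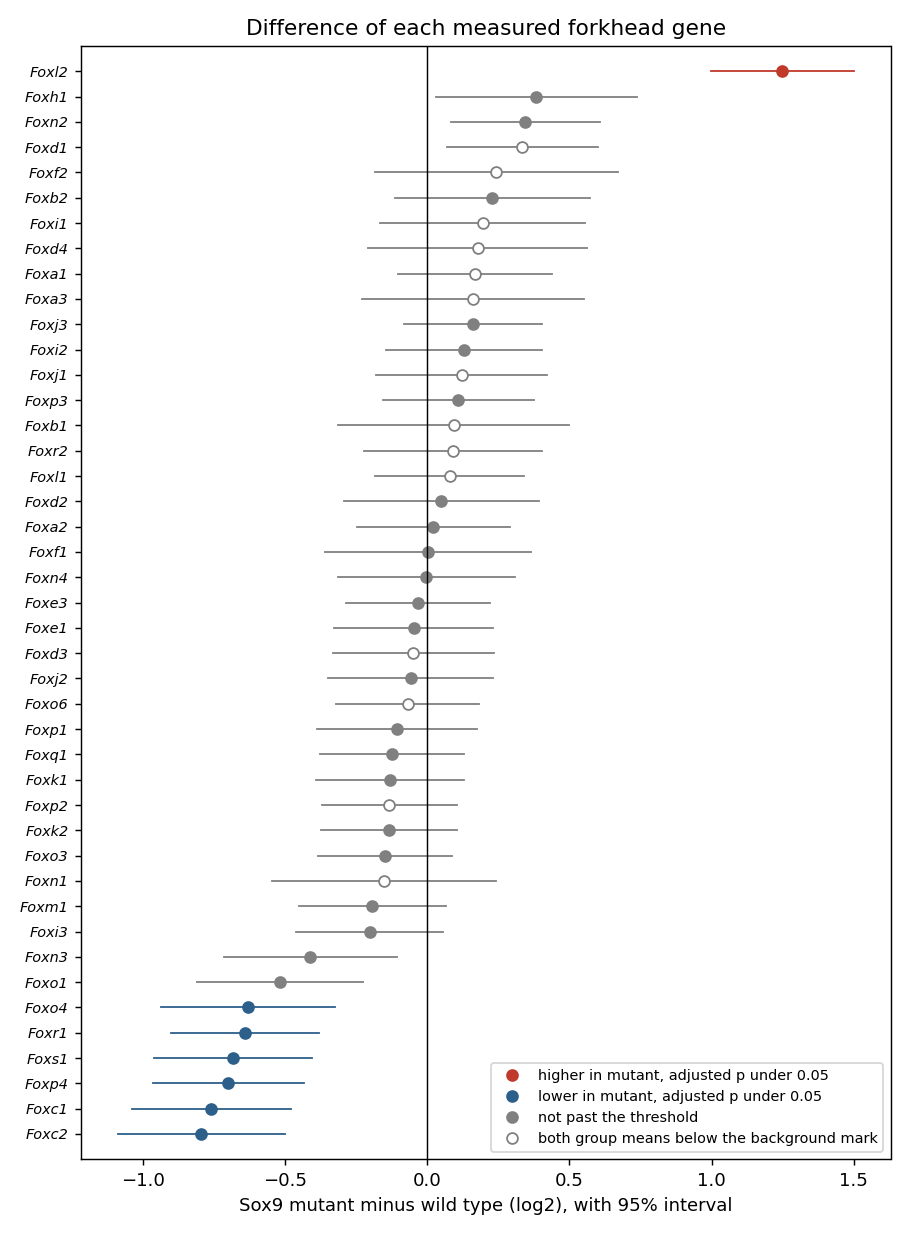
Difference of each of the 43 measured forkhead genes, Sox9 mutant minus wild type (log2), with 95% intervals from the limma fit; red is higher and blue lower in the mutant at an adjusted p under 0.05, grey did not pass, and open points have both group means below the background mark. Foxl2 stands alone on the right at 1.25, and the 6 fallers lie between -0.79 and -0.63.

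**Figure D3:**
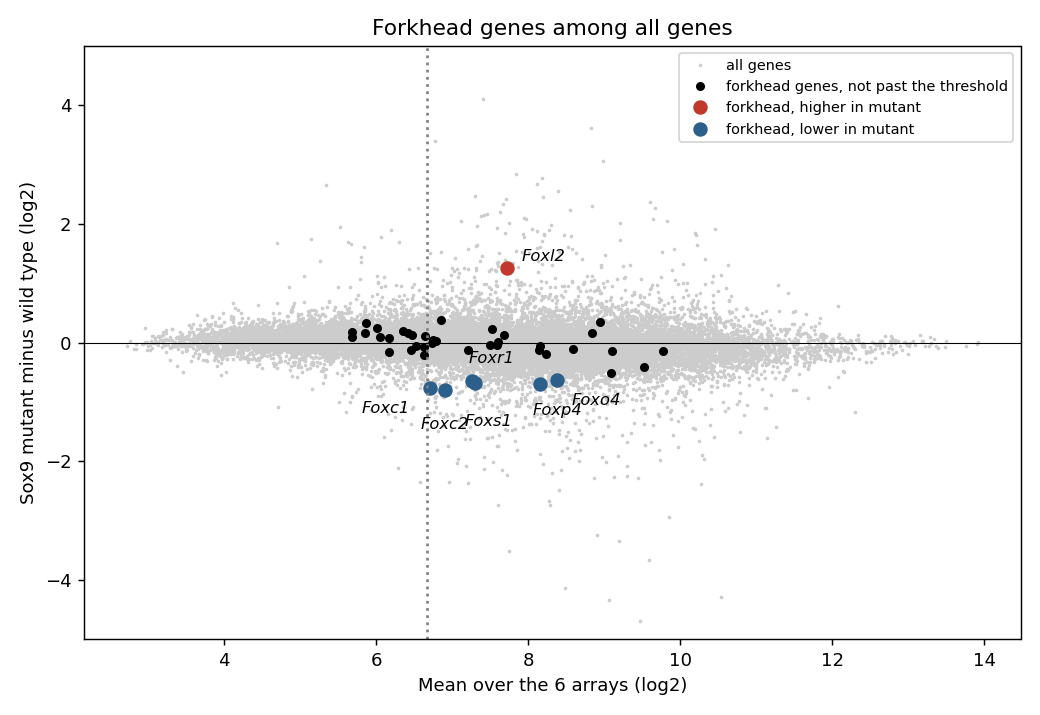
Mean over the 6 arrays (x, log2) and difference, Sox9 mutant minus wild type (y, log2), for all 19937 genes (grey) and the forkhead genes (black, or coloured where they passed); the dotted line is the background mark of 6.67. The forkhead genes that passed have 6-array means above the mark, Foxc1 and Foxc2 only through their wild-type values. All genes together span -4.70 to 4.11 log2.

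The forkhead genes beside Foxc1 and Foxc2 on their chromosomes did not pass. Foxc1 lies on chromosome 13 in a cluster with Foxf2 and Foxq1. Foxf2, a factor of gut and facial mesenchyme, measured 5.98, 6.55 and 5.86 log2 on mutants 3, 4 and 6, against 6.11, 5.72 and 5.84 in wild type, all below the mark. Foxq1, which acts in hair shaft formation in the mouse, differed by -0.12 log2 (limma adjusted p = 0.623). On chromosome 8, Foxc2 lies between Foxf1 and Foxl1, both factors of gut mesenchyme that respond to Hedgehog there. Foxf1 measured 7.73, 7.77 and 7.34 log2 on the mutants, against 7.50, 7.86 and 7.47 in wild type, a difference of 0.00 ± 0.16 (SE; limma adjusted p = 0.998) that changed sign among alternatives; its second probe set differed by -0.13 log2 (limma adjusted p = 0.760). Foxl1 differed by 0.08 log2 (limma adjusted p = 0.785), with both group means below the mark.

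Of the other FOXO factors none passed. Foxo1, which in the mouse is needed in spermatogonia and acts in granulosa cells, measured 8.64, 8.99 and 8.88 log2 on mutants 3, 4 and 6, against 9.45, 9.38 and 9.23 in wild types 1, 2 and 5. No mutant array reached the wild-type range, and the difference of -0.52 ± 0.13 log2 (SE) missed the threshold narrowly (limma adjusted p = 0.051). It passed in 6 of 15 alternative fits, with adjusted p from 0.0273 to 0.188. Foxo3, which holds primordial follicles of the mouse ovary dormant, averaged 9.70 log2 in the mutant and 9.85 in wild type (limma adjusted p = 0.507), also without overlap. Foxo6, a factor of the brain, had both means below the mark.

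A further 4 members had an unadjusted p under 0.05 without passing. Foxn3, a checkpoint repressor, had 9.08, 9.54 and 9.33 log2 on mutants 3, 4 and 6, against 9.73, 9.75 and 9.70 in wild type (limma adjusted p = 0.126), and a second probe set of this gene differed by -0.17 log2. Foxn2, of the same subfamily, went the other way, with 9.01, 9.06 and 9.27 log2 on the mutants, against 8.82, 8.73 and 8.77 in wild type (limma adjusted p = 0.137). In both genes the groups did not overlap. Foxd1, a marker of renal stroma, had 6.05, 5.98 and 6.06 log2 on the mutants, against 5.72, 5.53 and 5.83 in wild type, below the mark on every array (limma adjusted p = 0.153). Foxh1, which joins SMAD2 in the response to NODAL, had 6.83, 6.97 and 7.34 log2 on the mutants, against 6.57, 6.57 and 6.85 in wild type, and the groups overlapped (limma adjusted p = 0.219).

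The other 31 members had differences of at most 0.24 log2 in size. Of these, 6 had groups without overlap: Foxj3 with the mutant above, and Foxk2, Foxm1, Foxo3, Foxp2 and Foxq1 with it below. Over all genes, whatever their p, 28.7% had groups without overlap, so these separations say little by themselves. Foxm1, which drives genes of mitosis, measured 8.22, 8.17 and 8.04 log2 on mutants 3, 4 and 6, against 8.44, 8.33 and 8.23 in wild types 1, 2 and 5 (difference -0.19, limma adjusted p = 0.418). Foxk1 and Foxk2, which repress autophagy genes, differed by -0.13 log2 each. Foxp1, a factor of lymphocytes, heart and brain, differed by -0.11 log2 (limma adjusted p = 0.718).

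For 14 members both group means lay below the background mark, and none of these passed. They include Foxj1, the regulator of motile cilia, Foxn1 of the thymus, Foxd3 of the neural crest, Foxp2 of the brain and Foxa1 and Foxa3 of endoderm. On wild type 5, the array high in liver genes, Foxa1, Foxa2 and Foxa3 measured 6.49, 6.80 and 6.00 log2, within the range of the other 5 arrays (6.19 to 6.58, 6.62 to 6.93 and 5.44 to 6.10). Foxp3, the factor of regulatory T cells, had means of 6.69 log2 in the mutant and 6.58 in wild type, close to the mark. Intervals of the members that did not pass reached from -0.81 to 0.74 log2, and changes within those bounds could have been missed in single members.

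**Figure D4:**
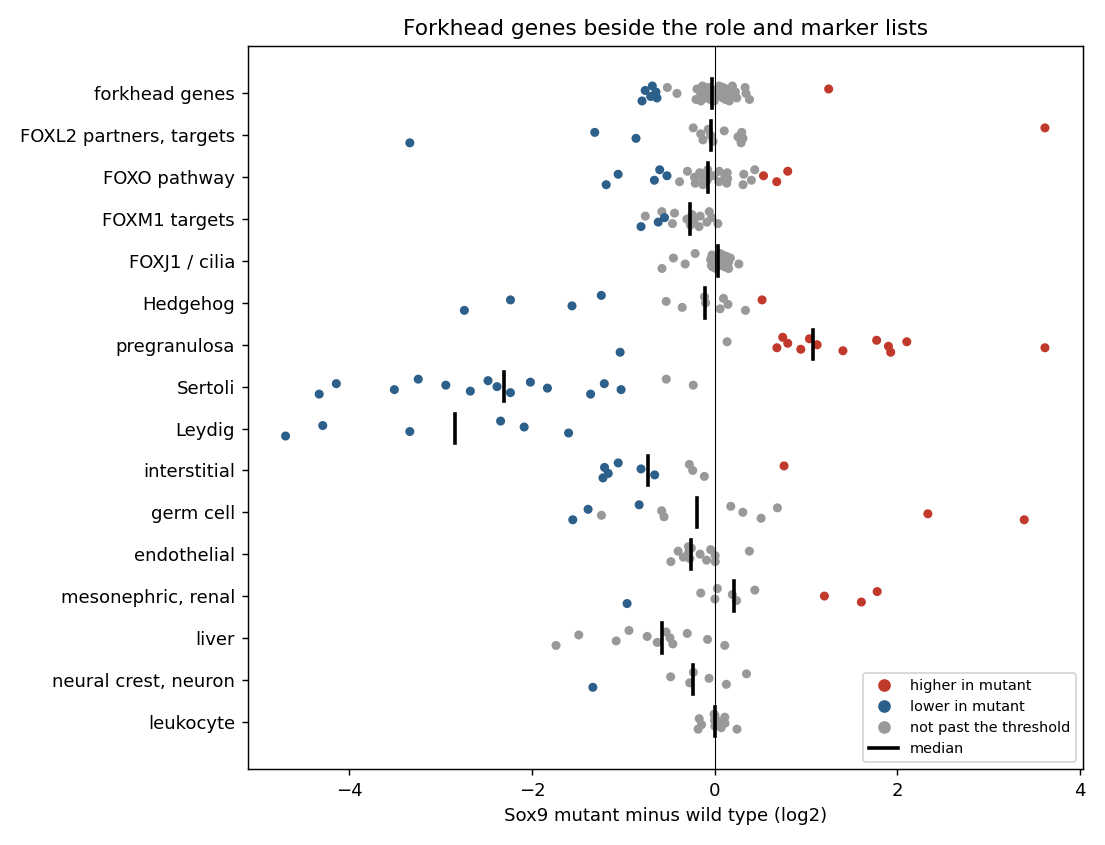
Differences, Sox9 mutant minus wild type (log2), of the forkhead genes and of each member of 15 gene lists; points are genes, red higher and blue lower in the mutant at an adjusted p under 0.05, grey not past the threshold, and bars are medians. The forkhead median is near 0, the pregranulosa median is 1.08 and the Sertoli median is -2.31.

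Gene lists tied to single forkhead factors were read from the same fit. Over all genes 2.64% rose, 4.3% fell and 21.7% had an unadjusted limma p under 0.05. These shares are the background for the list counts here and below. Of 15 measured partners and reported targets of FOXL2, Fst, which binds activin, rose by 3.62 log2, while Star fell by 3.34, Sox9 fell by 1.31 and Inhbb fell by 0.86, and 11 did not pass (median -0.04, against 0.00 over all genes). Beside Foxl2, 12 of 14 pregranulosa genes rose, led by Fst, Bmp2, Runx1 and Irx3, and Hsd17b1, an oestrogen-forming enzyme, fell by 1.03 log2 (median 1.08), a call that ended without wild type 1 or wild type 2. The mean of that list lay at 8.79, 8.68 and 8.82 log2 on mutants 3, 4 and 6, against 7.62, 7.51 and 7.48 on wild types 1, 2 and 5, and did not overlap. The count of 12 was 8 without wild type 2, and the wild-type mean of Runx1 was below the background mark. Lists and forkhead members were both chosen with earlier results of these data known, so the rise of this list beside Foxl2 is no independent support.

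In the FOXO list of PI3K and AKT input and reported targets, 3 of 29 rose and 5 fell (median -0.07). Pik3cd, a PI3K catalytic subunit, fell by 1.19 log2 and the ubiquitin ligase gene Fbxo32 fell by 1.06, while Cdkn1b, a cell cycle inhibitor, rose by 0.80 and Pik3r1, a PI3K regulatory subunit, by 0.68. The call of Cdkn1b ended without mutant 3, wild type 2 or wild type 5, and the counts of the list ran from 1 to 4 higher and 2 to 5 lower as single arrays were left out. Of 17 FOXM1 targets 3 fell, Aurkb by 0.81, Cks1b by 0.62 and Birc5 by 0.55 (median -0.26); none without mutant 3, wild type 1 or wild type 5, 1 did without wild type 2 and 5 did without mutant 6. None of 25 genes of motile cilia passed in the limma fit (3 with an unadjusted p under 0.05, median 0.03), and 16 had both means below the mark; 1 was lower with a further quantile normalization, with probe sets above the mark alone, with array weights or with arrays 5 and 6 as a term. Rfx3 averaged 7.90 log2 in the mutant and 7.75 in wild type, and Spef1 7.81 and 7.75. Of 13 Hedgehog genes Hhip fell by 2.74, Dhh fell by 2.24, Ptch1 fell by 1.56 and Gli1 fell by 1.24 log2, and Boc rose by 0.52 (median -0.11). The mutant means of Hhip and Dhh were below the background mark, which limits the size of those falls. The call of Boc ended without any single array other than mutant 6.

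Beside the 6 fallers, the interstitial and Leydig lists moved down, as did the Sertoli list given above. Outside these and the pregranulosa list, most genes of each marker list did not pass. Of 10 measured interstitial genes 6 fell, with Tcf21, Wnt5a, Pdgfrb and Dlk1 in front (-1.22, -1.21, -1.16 and -1.06 log2), and Lhx9 rose by 0.76 (median -0.73), a call that ended without mutant 3, wild type 2 or wild type 5. Their mean lay at 9.32, 9.56 and 9.44 log2 on mutants 3, 4 and 6, against 10.11, 9.96 and 10.04 in wild types 1, 2 and 5, without overlap; the count of 6 was 4 without wild type 1. The part of this list in the falls of Foxc1, Foxc2 and Foxs1 was not tested. All 6 measured Leydig genes fell (median -2.84), led by Cyp11a1, Cyp17a1, Star and Hsd3b1 (-4.70, -4.29, -3.34 and -2.34 log2). The count was 5 without mutant 3, wild type 1, wild type 2 or wild type 5; Cyp17a1 passed in 8 of 15 alternative fits (limma adjusted p up to 0.1502), and Cyp11a1 lost its call with trend and robust variance. The Leydig list had a mean of 7.23, 9.04 and 7.10 log2 on mutants 3, 4 and 6, against 10.8 to 10.9 log2 in wild type. The mutant mean of Hsd3b1 was below the background mark, which limits the size of its fall. Among 13 endothelial genes limma called none (5 with an unadjusted p under 0.05, median -0.25), with Kdr at 9.78 log2 in the mutant and 9.40 in wild type and Cdh5 at 9.06 and 9.34; 1 was lower with probe sets above the mark alone or with array weights. In the mesonephric and renal list of 10 measured genes (median 0.22), Calb1, Emx2 and Gata3 rose by 1.78, 1.61 and 1.20 log2. The wild-type means of Calb1 and Gata3 were below the background mark. Lhx1 fell by 0.96 log2, a call that ended without mutant 3, wild type 1 or wild type 2. Of 12 germ cell genes Stra8 and Sycp3 rose and Dppa3, Utf1 and Dnd1 fell (median -0.19). None fell without wild type 1 or wild type 2. The wild-type means of Stra8 and Sycp3 were below the background mark, and Sycp3 lost its call with trend and robust variance (limma adjusted p = 0.0750). Of 7 neural crest and neuronal genes Erbb3 fell by 1.33 log2 (median -0.23). None of 12 leukocyte genes passed in limma (0 with an unadjusted p under 0.05, median 0.00), with Cx3cr1 at 7.38 log2 in both groups and Csf1r at 7.38 log2 in the mutant and 7.37 in wild type. None of 12 liver genes passed either (1 with an unadjusted p under 0.05, median -0.58, and 0.04 without wild type 5), with Trf at 7.62 log2 in the mutant and 8.55 in wild type and Apoa2 at 7.39 and 8.13; 1 was lower with arrays 5 and 6 as a term.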

How the data were processed

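Values are the deposited log2 values of 6 Affymetrix arrays, which the authors made with RMA per the submitters' processing notes; the sources used here do not give its version or settings. RMA compresses differences near background. Of 34760 rows, 6573 with identifiers below the lowest annotated one were left out as the array's control block; 28187 probe sets were tested, 21640 with 1 gene. Sox9 mutant was set against wild type in limma 3.58.1 under R 4.3.3 (lmFit, eBayes, 2-sided, Benjamini-Hochberg over all probe sets, threshold 0.05). The fit was also run on simulated data, but the outcome is not given here and lends the calls no support. Precision is limited by there being 3 arrays a group.

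Members, gene lists and tests were chosen with earlier results of these data known. Values on every array are given for Foxl2, for members past the threshold or with an unadjusted p under 0.05, and for members with no overlap and a difference over 0.5 log2; cluster neighbours and Foxm1 were added after their values were seen. Of each list up to 4 called genes, or the 2 highest means, are named; further calls were named after seeing them. Figures used matplotlib 3.10.9.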

Additional observations from a re-analysis of the deposited data

How the results depend on the processing

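There were 17 alternative settings, 1 of them (arrays 1 to 4 alone) chosen after the data were seen. Foxl2, Foxc1 and Foxc2 passed in each, also at an adjusted p of 0.01. A gene past the adjusted threshold could not fail at an unadjusted p under 0.05, so that setting adds no support. The setting of probe sets above the mark adds none for Foxc1 and Foxc2. Foxl2 ranged between 1.202 and 1.33 log2. Lower forkhead genes numbered 2 to 6 as single arrays were left out, 3 at a threshold of 0.01 and 3 among arrays 1 to 4 alone; they numbered 5 with all rows, 7 (Foxo1 added) at a common median, with probe sets above the mark alone, with trend and robust variance, with array weights, with arrays 5 and 6 as a term or with the mean of a gene's probe sets, and 8 at an unadjusted p under 0.05. Higher ones numbered 1, and 4 at an unadjusted p under 0.05. With all rows of the table tested, Foxo4 lost its call (limma adjusted p = 0.0658). Over all genes, 262 to 546 were higher and 330 to 746 lower with 1 array left out, 307 and 465 with all rows, 199 and 328 at a threshold of 0.01, and 1752 and 2572 at an unadjusted p under 0.05. With arrays 5 and 6 as a term, a grouping no label gives, 820 genes were higher, and 513 were lower among arrays 1 to 4. The cause was not tested. Sign changes touched 12 uncalled members: Foxa2 (-0.022 with a further quantile normalization, -0.0006 at a common median), Foxf1 (-0.0204 at a common median, -0.0635 as the mean of its probe sets), Foxe1 (0.0187 with array weights, 0.0526 among arrays 1 to 4), and Foxd3 (0.0302) and Foxn4 (0.0096) among arrays 1 to 4. With 1 array left out, differences ran from -0.0615 to 0.0948 (Foxa2), -0.0044 to 0.29 (Foxa3), -0.0301 to 0.253 (Foxb1), -0.0685 to 0.188 (Foxd2), -0.141 to 0.0488 (Foxd3), -0.13 to 0.0064 (Foxe1), -0.10 to 0.0029 (Foxe3), -0.0785 to 0.139 (Foxf1), -0.15 to 0.0316 (Foxj2), -0.342 to 0.0188 (Foxn1), -0.0989 to 0.0875 (Foxn4) and -0.0070 to 0.18 (Foxr2). No paired analysis was possible because the groups share no replicate number.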
